A study of Mus musculus with 11 samples.

Results

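The passage of Pre MegE cells into Pre CFU-E cells, called the step here, is the point in mouse bone marrow at which progenitors of both megakaryocytes and red cells turn to the red cell line. It was read from 6 of the study's 11 arrays, chosen by their labelled stage: 3 of Pre MegE and 3 of Pre CFU-E cells. Each stage had 1 array from each of 3 genotypes, set by a gfp insertion in Zbtb46, which encodes a zinc finger transcription factor. WT mice (Zbtb46+/+) carried no gfp allele, Het mice (Zbtb46gfp/+) 1 and KO mice (Zbtb46gfp/gfp) 2. All were C57Bl/6 mice at steady state; no age is given. The other arrays held CFU-E cells of the same genotypes (3 arrays) and splenic CD4+ dendritic cells (2 arrays). In both stages the sorted cells were negative for lineage markers, CD41 and CD16/32 and positive for CD117 and CD150. The gates differed by CD105 alone, which was absent in Pre MegE and low in Pre CFU-E.

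Pre MegE cells can still form megakaryocytes or red cells, while Pre CFU-E cells are largely restricted to the red cell lineage. Across this branch the stem cell factor GATA2 gives way to GATA1, which acts with TAL1, KLF1 and their partners on red cell genes, and factors of the megakaryocyte and white cell lines are turned down. The cells then divide fast, build mitochondria for heme synthesis and come to depend on erythropoietin, which signals through its receptor, JAK2 and STAT5.

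Values are log2 intensities per gene, and the step is the mean of Pre CFU-E minus Pre MegE over the 3 genotypes, each genotype compared with itself (n = 3 arrays per stage). A gene is called, and said to have risen or fallen, where limma's test over the 9 progenitor arrays gave a Benjamini-Hochberg adjusted p under 0.05 over all 10701 genes tested. Genes below the array medians on nearly every array were not tested, so a gene dim in 1 stage could enter a list's count through the stage in which it was high. Where this filter moved a median given here by over 1.5 times, the values over all measured members are given too. Where 6 values of a gene are given, they are in the order WT, Het and KO for Pre MegE and then for Pre CFU-E. The ranges of the stages did not overlap for genes given in this way, other than Zbtb46, Cxcl10, Cabcoco1, Tent5c, Podxl and Akap5. Such a lack of overlap also held for Eng, which was not called. How many of all genes tested lacked overlap was not counted. Arrays of RNA from sorted cells cannot tell fewer cells of a type from less RNA per cell. Whether separate mice gave the stages of a genotype is not stated in the labels, so the p-values measure the spread between these arrays.

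The WT progenitor arrays had high Xist, an RNA of the inactive X chromosome of female cells (12.31 in Pre MegE and 11.84 in Pre CFU-E), and also the Y-linked genes Kdm5d, Uty and Eif2s3y (Uty at 9.78 and 9.46). In the Het and KO arrays of these stages Xist was at or below 6.10 and Uty at or above 9.81. The WT arrays thus held RNA with marks of both sexes, which runs with genotype and not with stage. The WT Pre MegE array also differed a little more from the Het and KO arrays of its stage (SD of the log2 difference over genes 0.154 and 0.142) than those did from each other (0.108). Results without all WT arrays are given for the counts over all genes and where a named call changed. In 174 of the genes tested (1.63%) the 3 Pre CFU-E arrays held the same deposited value to every digit, against 17 genes for Pre MegE (0.159%), so their spread within Pre CFU-E is 0. Meis1, Cd93, Pecam1, Vav3, Plpp1 and H2-Oa are among these 174. Any pair of Pre CFU-E arrays held identical values in 490 to 621 genes, against 87 to 126 in Pre MegE. Tek, S1pr1, Tbxas1, H2-Ob, Slc38a5, Hars, Ccne1 and Itga2b are among genes with equal values on a pair of Pre CFU-E arrays. The SEs of such genes are to be read with this in mind.

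Of the 10701 genes tested, 7099 changed (66.3%), 3965 of them higher (37.1%) and 3134 lower (29.3%) in Pre CFU-E. Centring the arrays on their medians moved these counts to 5045 higher and 2522 lower. Most changes were small: 1804 called genes differed by under 1.2-fold, 3151 by 1.2 to 1.5-fold, 1496 by 1.5 to 2-fold, 576 by 2 to 4-fold and 72 by more. At 2-fold and beyond the falls outnumbered the rises, with 466 genes lower (4.35%) and 182 higher (1.7%). Past 4-fold there were 49 lower and 23 higher. For 3858 genes (36.1%) the 95% interval of the step lay wholly within 0.3 log2 of 0, and these are called steady. Without the WT arrays 6039 of 10597 genes were called (57%), 3410 higher and 2629 lower, with 190 and 472 of them past 2-fold. Counts of the gene groups that follow are to be read against these shares and against the median step of all genes tested, 0.04.

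**Figure D1:**
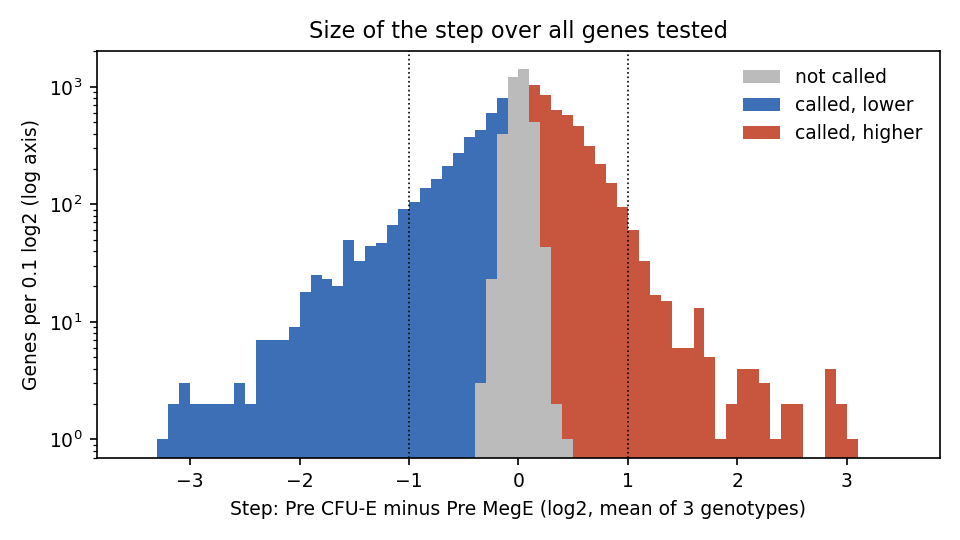
Number of genes (log axis) by the size of the step, Pre CFU-E minus Pre MegE in log2, in bins of 0.1 over 10701 genes, coloured by limma's call; dotted lines mark 2-fold. The tail of falls, 466 called genes past 2-fold, is longer than that of rises, 182 genes.

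The RNA of the gate markers was read first. The gates act on surface protein, which was not measured here, so these values do not grade the sort. Itga2b, the integrin chain CD41, fell although both gates excluded CD41: it was at 10.85, 10.94 and 10.89 in Pre MegE and 8.73, 8.66 and 8.66 in Pre CFU-E, a 4.62-fold fall (step -2.21, SE 0.053, limma adjusted p = 7.5e-09). Slamf1, which encodes CD150 and was required in both gates, fell by 1.57, from 11.45, 11.44 and 11.51 to 9.93, 9.88 and 9.87. Eng encodes CD105, the marker that separated the gates. Its RNA was at 11.78, 11.81 and 11.80 in Pre MegE and 11.69, 11.73 and 11.77 in Pre CFU-E, a step of -0.07 that was not called (SE 0.0446, limma adjusted p = 0.227), and all 6 values lay within a narrow band. The step was 0.02 after centring of the arrays, and with quantile normalization it was -0.17 and called (limma adjusted p = 0.0116). Kit, the stem cell factor receptor CD117, was at 12.69, 12.68 and 12.64 in Pre MegE and 12.38, 12.42 and 12.37 in Pre CFU-E and fell by 0.28. Of the Fc gamma receptor genes behind CD16/32, Fcgr2b was at 8.99, 8.90 and 8.81 in Pre MegE and 7.71, 7.53 and 7.30 in Pre CFU-E and fell by 1.39. Fcgr3 was too dim to be tested, at 7.24 to 7.60 over the 6 arrays.

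Zbtb46, the disrupted gene, was at 7.52, 7.67 and 7.71 in Pre MegE and 8.14, 8.30 and 7.70 in Pre CFU-E. The WT and Het cells were higher in Pre CFU-E than in Pre MegE and the KO cells were not, and every Pre MegE value lay below its array's median. Its step was not called (0.42, SE 0.2263, limma adjusted p = 0.132). Without the KO arrays it was 0.63 (limma adjusted p = 0.00112), and limma adjusted p ranged from 0.00112 to 0.591 over the alternatives.

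Markers of other cell types were read as levels. Granulocyte and monocyte genes, whose summed linear intensity over 15 genes was 48110 to 56190 in Pre MegE and 26570 to 32720 in Pre CFU-E, all fell where tested (14 of 14, median -0.92). Mpo, the neutrophil peroxidase, was at 12.61, 12.42 and 12.46 in Pre MegE and 11.71, 11.43 and 11.41 in Pre CFU-E, so it lay above the array medians in both stages. Mast cell, basophil and eosinophil genes went the same way, with 7 of 7 tested, and 9 of all 12 measured, lower. Their sum over the 12 genes was 10110 to 13500 in Pre MegE and 4197 to 5830 in Pre CFU-E. So did megakaryocyte and platelet genes (9 of 9 tested, and 10 of all 12 measured, lower, 9535 to 10030 against 2969 to 3190). B lineage genes did too (8 of 8 tested, and 11 of all 13 measured, lower, 6318 to 7088 against 3608 to 3986). Of 16 T and NK cell genes 14 lay below the array median on all 6 arrays (summed 7372 to 7721 against 2793 to 3319). Nkg7 carried the difference of that sum, which was 1470 to 1527 against 1433 to 1444 over the other 15 genes. Likewise below the median on all 6 arrays were 13 of 18 dendritic cell and macrophage genes, C1qa, C1qb and C1qc among them (2760 to 3003 against 2236 to 2405). So were 7 of 14 endothelial and stromal genes (4318 to 4701 against 2264 to 2319). Over all 14 of the latter, 4 were lower and the median step was -0.05. Pdgfrb fell most among those tested (step -2.20). Of 7 later erythroblast genes tested, 1 rose, 3 fell and 3 were not called. The list held 17 genes, and the others were not measured. Trim10 rose by 0.38 and stayed below the array median, while Trim58, Slc4a1 and Alas2 had steps of -0.63, -0.29 and -0.23. Alas2 lay below the median in all Pre CFU-E arrays. The part of admixed cells in the falls of such genes was not tested.

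Among transcription factors of the erythroid and megakaryocyte-erythroid branches, 7 of 25 rose, 11 fell and 7 were not called, with a median step of -0.10. Nfia, a nuclear factor I gene known to favour red cell over granulocyte fate, rose most. It was at 9.94, 9.69 and 9.74 in Pre MegE and 11.49, 11.49 and 11.42 in Pre CFU-E, a 3.2-fold rise (step 1.68, SE 0.0744, limma adjusted p = 1.44e-07). A second, dimmer probe set of Nfia gave 2.35. Gata2 had the largest fall of the list, from 12.30, 12.41 and 12.32 to 10.68, 10.77 and 10.66 (step -1.64, SE 0.0454, limma adjusted p = 1.45e-08).

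Other red cell regulators rose by less. Klf1, the activator of globin and red cell membrane genes, was at 10.96, 11.23 and 11.13 in Pre MegE and 11.79, 11.79 and 11.88 in Pre CFU-E (step 0.71, SE 0.0698), and Klf3, its repressive relative, at 9.67, 9.60 and 9.73 in Pre MegE and 10.29, 10.34 and 10.36 in Pre CFU-E (step 0.67). Gfi1b, a repressor needed in red cells and megakaryocytes, rose by 0.40, Gata1 by 0.29 and its partner Tal1 by 0.25. Gata1 was thus 1.22-fold higher while Gata2 was 3.12-fold lower, and the GATA1 cofactor Zfpm1 fell by 0.27.

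Runx1, which acts in stem cells and megakaryocytes, was at 11.79, 11.67 and 11.61 in Pre MegE and 10.59, 10.59 and 10.51 in Pre CFU-E (step -1.13, SE 0.062). Nfe2, used in platelet formation, fell by 0.75 and Bach1, the heme-sensing repressor, by 0.65. The LIM domain bridge of the GATA1 and TAL1 complex, Lmo2 (0.00), the TAL1 relative Lyl1 (-0.03) and the fetal globin repressor Bcl11a (0.02) were steady. Myb, which holds progenitors in an immature state, fell by only 0.17 and counts as steady.

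**Figure D2:**
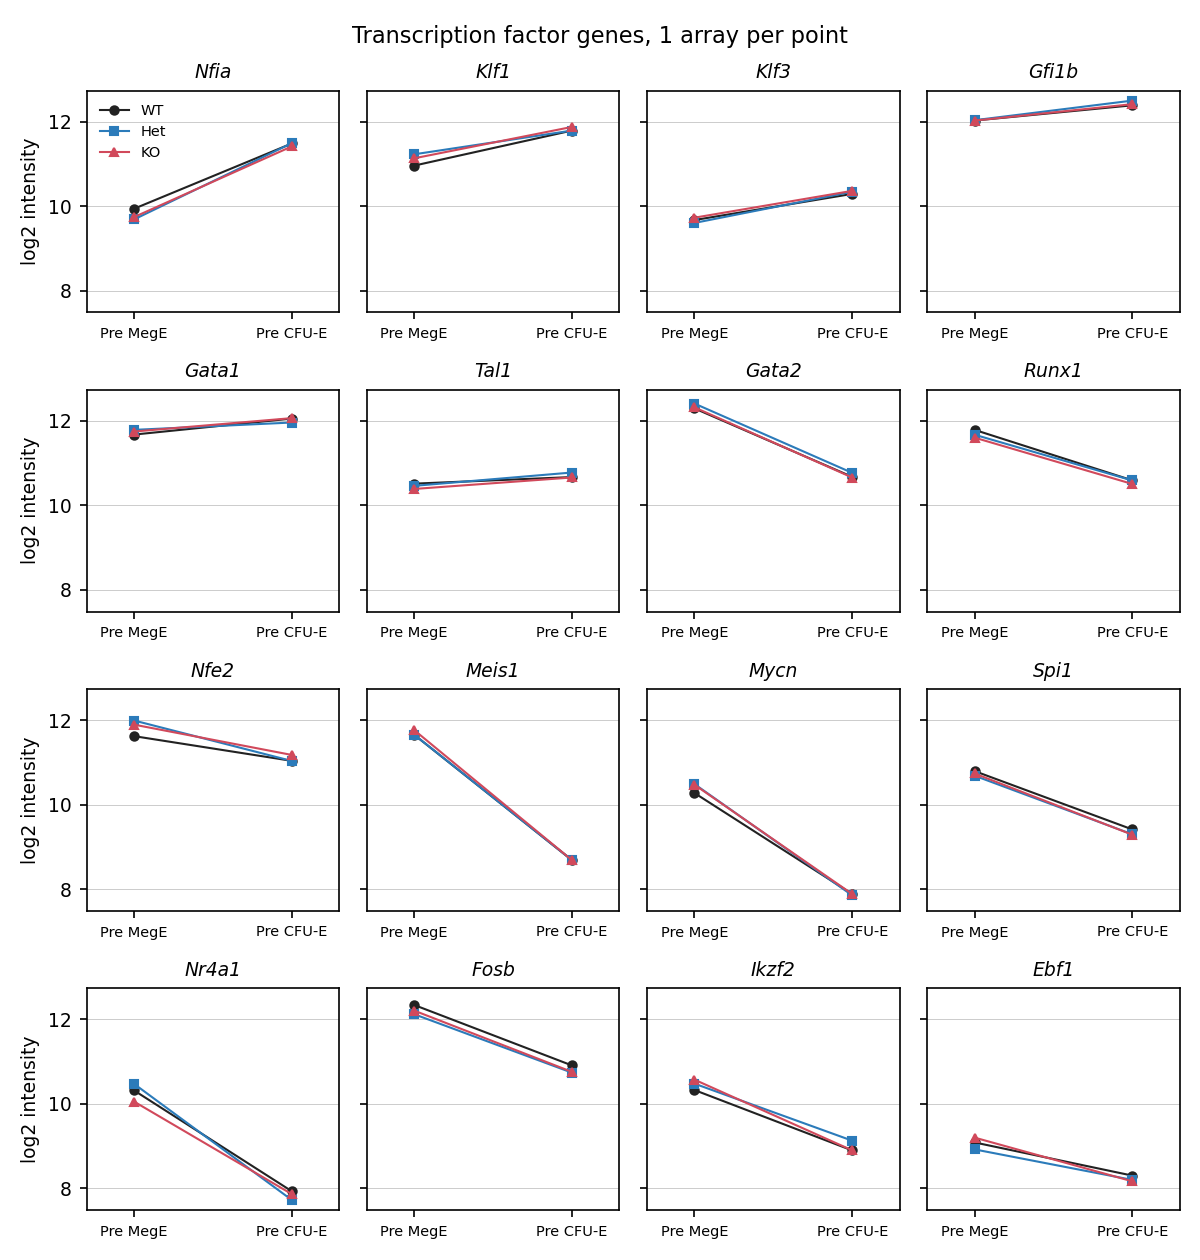
Log2 intensity of 16 transcription factor genes in Pre MegE and Pre CFU-E, 1 point per array and 1 line per genotype (WT, Het, KO). The lines of the 3 genotypes run together: Nfia, Klf1 and Klf3 go up, Gata1 and Tal1 slightly up, and Gata2, Meis1, Mycn, Spi1 and Nr4a1 down.

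The sequence before the start site is shown for 6 genes with the letters that GATA factors read, chosen after their values were seen: 4 that rose (Klf1, Epor, Rhd and Pklr) and 2 mast cell genes that fell (Ms4a2 and Cpa3). Each run is the last 150 bases before the RefSeq start of GRCm38.p6, written 5′ to 3′ on the gene's strand. Capitals mark AGATAA or TGATAA on either strand (TTATCT or TTATCA when read on the other strand) and, in Epor, also CCCCACCC, 1 of the KLF letters searched.
Klf1, chr8:84901832-84901981, plus strand, step 0.71: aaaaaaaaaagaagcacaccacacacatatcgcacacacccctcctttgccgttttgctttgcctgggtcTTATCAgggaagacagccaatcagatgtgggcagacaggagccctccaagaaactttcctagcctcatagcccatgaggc
Epor, chr9:21963577-21963726, minus strand, step 0.80: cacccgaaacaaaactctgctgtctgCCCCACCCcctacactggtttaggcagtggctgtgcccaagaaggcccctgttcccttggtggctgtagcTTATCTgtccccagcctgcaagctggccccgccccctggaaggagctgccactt
Rhd, chr4:134864386-134864535, plus strand, step 3.01: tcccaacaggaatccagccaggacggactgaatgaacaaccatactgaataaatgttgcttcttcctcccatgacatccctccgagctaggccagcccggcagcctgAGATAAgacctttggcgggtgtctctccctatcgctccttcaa
Pklr, chr3:89135992-89136141, plus strand, step 2.56: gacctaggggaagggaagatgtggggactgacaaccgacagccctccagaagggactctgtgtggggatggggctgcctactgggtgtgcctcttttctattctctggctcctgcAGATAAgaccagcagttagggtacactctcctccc
Ms4a2, chr19:11623720-11623869, minus strand, step -2.02: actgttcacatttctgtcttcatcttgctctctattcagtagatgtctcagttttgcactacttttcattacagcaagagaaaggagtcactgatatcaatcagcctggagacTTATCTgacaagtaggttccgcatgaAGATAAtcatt
Cpa3, chr3:20242182-20242331, minus strand, step -2.23: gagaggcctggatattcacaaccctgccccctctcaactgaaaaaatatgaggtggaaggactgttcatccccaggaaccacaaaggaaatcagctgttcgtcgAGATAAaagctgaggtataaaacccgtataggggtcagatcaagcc
The GATA letters begin 80, 54, 43 and 35 bases before the start in Klf1, Epor, Rhd and Pklr, 37 and 11 in Ms4a2 and 46 in Cpa3. Of 27025 promoters in the table, 2677 hold such letters in the same 150 bases (9.91%) and 2272 the KLF letters CCACACCC or CCCCACCC (8.41%). These matches are descriptions of sequence, and the same letters stand before genes that rose and genes that fell. A comparison of classes of genes was void, because a promoter was found for only 78.6% of the genes at least 2-fold higher and 78.3% of those at least 2-fold lower, under the 80% needed.

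Stem and multipotent progenitor factors fell nearly as a block: 13 of 15 tested (of 22 listed) were lower, Bmi1 was higher and Nfix was steady, with a median step of -0.92. Meis1, a homeobox factor of stem cells and megakaryocytes, had the largest fall of the transcription factor lists. It was at 11.66, 11.66 and 11.77 in Pre MegE and 8.68, 8.68 and 8.68 in Pre CFU-E, with the same value in all 3 Pre CFU-E arrays (step -3.01, SE 0.0485, limma adjusted p = 1.85e-09). Mycn, which supports stem cell growth, fell 5.82-fold, the ETS factors Erg 5.07-fold and Fli1 3.27-fold, and Mef2c 3.82-fold. Bmi1, a Polycomb gene of self-renewal, was at 9.98, 10.08 and 9.94 in Pre MegE and 10.21, 10.21 and 10.32 in Pre CFU-E (step 0.25).

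Factors of the granulocyte, monocyte and dendritic cell lines fell in 11 of 14 tested genes, with a median of -0.49. Spi1 encodes PU.1, which drives the myeloid lines and opposes GATA1. It was at 10.80, 10.69 and 10.74 in Pre MegE and 9.41, 9.30 and 9.29 in Pre CFU-E (step -1.41, SE 0.0443, limma adjusted p = 2.43e-08). Zeb2 fell by 1.22, Id2 by 0.81 and the granulocyte factor Cebpa by only 0.27, while Cebpb was steady at 0.02. Mitf was the member that rose, by 0.28 from levels close to the array medians. The granulocyte markers of the same arrays fell by a median of -0.92, and their part in these falls was not tested.

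Lymphoid factors fell in 10 of 13 tested genes (median -0.50) and none rose. Ikzf2, Helios, was at 10.33, 10.48 and 10.58 in Pre MegE and 8.90, 9.13 and 8.90 in Pre CFU-E (step -1.49, SE 0.0708). Satb1 fell by 1.22 to below the array median, and the B cell factor Ebf1 by 0.85. Ikzf1, Ikaros, which is also used in red cells, was steady at 0.04.

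Every one of the 16 tested genes of the AP-1, EGR, NR4A and KLF2/4/6 families, which respond within minutes to growth factors, fell, with a median of -1.03. Nr4a1, an orphan nuclear receptor, was at 10.32, 10.47 and 10.06 in Pre MegE and 7.93, 7.72 and 7.86 in Pre CFU-E (step -2.45, SE 0.0931, limma adjusted p = 5.89e-08). Klf6 fell by 1.81, Fosb by 1.42 and Atf3 by 1.37; the smallest fall was that of Egr3, -0.31.

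The E2F, MYC and MAX network was mixed: 7 of 19 genes rose, 6 fell and 6 were not called (median -0.11, and -0.04 over all 20 measured). The pocket protein partner E2f4, which acts in red cell precursors, was at 11.02, 10.99 and 11.09 in Pre MegE and 11.74, 11.80 and 11.74 in Pre CFU-E (step 0.73, SE 0.0494), and E2f6 rose by 0.68. Myc itself rose by 0.14, within the steady band, from an already high level of 13.02, 13.10 and 13.09. Its antagonists Mxd4 and Mxd1 fell by 0.81 and 0.71.

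Of 26 chromatin and DNA methylation genes 8 rose, 11 fell and 7 were not called, against 37.1% higher and 29.3% lower of all genes. Their median was -0.03 (-0.06 over all 27 measured) and turned to 0.06 when arrays were centred. Tet1, which oxidises methylated cytosine, was at 10.57, 10.42 and 10.53 in Pre MegE and 8.99, 9.02 and 8.91 in Pre CFU-E (step -1.53, SE 0.0595, limma adjusted p = 6.68e-08), and Tet2 and Tet3 fell by 0.79 and 0.38. The de novo methyltransferases Dnmt3a and Dnmt3b fell by 0.48 and 0.40, whereas the maintenance enzyme Dnmt1 was steady (0.04) and its partner Uhrf1 rose by 0.24. The largest rise was that of Suv39h2, a histone H3 lysine methyltransferase, from 8.18, 8.15 and 8.34 to 8.99, 9.004 and 9.04 (step 0.79). Kmt5a, which methylates histone H4 and is known for its role in red cell chromatin condensation, rose by 0.50, and Hdac5 fell by 1.11.

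Receptors of cytokines and growth factors fell in 23 of 28 tested genes (median -0.60), and the 2 that rose belong to the red cell line. Epor, the erythropoietin receptor, was at 10.86, 11.03 and 11.01 in Pre MegE and 11.70, 11.77 and 11.83 in Pre CFU-E (step 0.80, SE 0.047, limma adjusted p = 7.55e-07). Tfr2, a transferrin receptor that binds EPOR, rose by 0.31. Tek, the receptor of angiopoietins on stem cells and vessels, fell most: it was at 9.52, 9.50 and 9.55 in Pre MegE and 7.22, 7.22 and 7.08 in Pre CFU-E and ended below every array's median (step -2.35, SE 0.0636).

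The beta chain shared by the receptors of IL-3, IL-5 and GM-CSF, Csf2rb, had a step of -2.21, and Csf2rb2, the beta chain specific to mouse IL-3, one of -1.55. The alpha chains had smaller falls, Il3ra by 0.46 and Csf2ra by 0.37. The G-CSF receptor Csf3r fell by 1.13, Flt3 by 0.97, the activin receptor Acvr1b by 1.48 and the insulin-like growth factor receptor Igf1r by 1.03. Interferon receptor genes Ifngr1, Ifngr2 and Ifnar2 were steady (-0.08, 0.00 and -0.05), but Ifnar1 fell by 0.61.

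Inside the cell 14 of 27 JAK, STAT and SOCS genes fell, 12 were not called and 1, the kinase Pim2, rose (median -0.14). Over all genes tested 29.3% fell and 37.1% rose. Most moves were small, with 15 of the 27 steady. Without the WT arrays none rose and 11 fell. Stat4, the transducer of IL-12, fell most, at 11.10, 11.05 and 11.15 in Pre MegE and 8.14, 7.90 and 8.09 in Pre CFU-E (step -3.06, SE 0.0543, limma adjusted p = 1.85e-09). Of the genes through which the erythropoietin receptor signals, Stat5a was steady (-0.07), Stat5b fell by 0.31 and Jak2 by 0.58. Their targets Socs2, Pim1 and Cish fell by 0.98 (a second probe set gave -0.54), 1.02 and 0.42. Stat3, used by the IL-6 and G-CSF receptors, fell by 1.06.

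In the RAS and MAP kinase pathway 23 of 28 genes fell and 3 rose (median -0.32). The feedback inhibitors did not move together. Spry4 was at 7.73, 7.52 and 7.67 in Pre MegE and 8.83, 9.09 and 8.97 in Pre CFU-E, below the array median in all 3 Pre MegE arrays and above it in Pre CFU-E (step 1.32, SE 0.0818, limma adjusted p = 1.01e-06). Its relatives Spry2 and Spry1 fell by 0.41 and 0.30, and so did the phosphatases of MAP kinases Dusp2 (-1.81), Dusp4 (-1.16), Dusp1 (-0.98), Dusp6 (-0.90) and Dusp5 (-0.85). Rasgrp2, the platelet exchange factor for RAP1, fell most, from 10.38, 10.43 and 10.62 to 8.61, 8.50 and 8.61 (step -1.90). The core kinase gene Map2k2 rose by 0.34, Nras was steady at 0.01, and Araf at -0.07.

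PI3 kinase, AKT and mTOR genes fell in 14 of 25 cases and rose in 6 (median -0.32). Sesn3, a stress-induced restraint on mTOR, was at 9.85, 9.84 and 9.85 in Pre MegE and 8.25, 8.25 and 8.13 in Pre CFU-E (step -1.64, SE 0.0764), while its relative Sesn2 rose by 0.60. Other restraints of the pathway fell as well, Pik3ip1 by 1.51, Inpp4b by 1.44, Deptor by 0.79 and Inpp5d by 0.59, together with the leukocyte catalytic subunits Pik3cg (-0.91) and Pik3cd (-0.54). Akt1 (-0.03), Mtor (0.06) and Tsc2 (-0.04) were steady, and the mTOR partners Rheb and Mlst8 rose by 0.24 and 0.34.

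The kinases, phosphatases and adaptors that serve immune and platelet receptors fell in 24 of 27 genes and rose in none (median -0.98). The T cell phosphatase Ptpn22 was at 9.16, 9.24 and 9.18 in Pre MegE and 7.52, 7.38 and 7.33 in Pre CFU-E (step -1.78, SE 0.0591). Lcp2, the SLP-76 adaptor of platelets, mast cells and T cells, fell by 1.76, Vav3 by 1.61, Plcg2 by 1.51, Syk by 1.48 and Ptprc, which encodes CD45, by 1.38. Csk, Gab3 and Vav2 were steady. In the same arrays the tested megakaryocyte and platelet markers had a median of -1.57 (-0.99 over all 12 measured), and the mast cell genes Cpa3, Ms4a2 and Hdc fell by 2.23, 2.02 and 1.90; their part was not tested.

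Protein kinase C, calcium and diacylglycerol genes fell in 24 of 28 cases and rose in 2 (median -0.61). Plcb2, a phospholipase C driven by G proteins, was at 11.68, 11.69 and 11.68 in Pre MegE and 9.84, 9.85 and 9.69 in Pre CFU-E (step -1.89, SE 0.0675), and Dgka, Prkce and Prkca fell by 1.81, 1.48 and 1.10. Plcl2, a relative of phospholipase C, rose by 0.40.

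G protein coupled receptors and RGS proteins fell in 18 of 24 tested genes of 38 listed, and 1 rose (median -0.69). Over all 34 measured genes 22 were lower and the median was -0.40. Adgrl4, an adhesion receptor of vessels and progenitors, fell most, at 11.24, 11.41 and 11.43 in Pre MegE and 8.14, 8.11 and 8.16 in Pre CFU-E (step -3.22, SE 0.0637). Rgs1, which shortens chemokine signals, was at 12.08, 12.20 and 12.06 in Pre MegE and 9.81, 9.42 and 9.53 in Pre CFU-E (step -2.53, SE 0.089), and S1pr1, the sphingosine 1-phosphate receptor that guides cells out of tissue, at 10.33, 10.38 and 10.10 in Pre MegE and 7.87, 7.87 and 7.68 in Pre CFU-E (step -2.46, SE 0.0626). Rgs2 fell by 2.19, the thrombin receptor F2r by 1.74 and Cxcr4, which holds cells in the marrow, by only 0.43.

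NF-kappaB genes fell in 13 of 20 (median -0.21), led by the subunit Rel at 11.11, 11.07 and 10.86 in Pre MegE and 9.61, 9.44 and 9.17 in Pre CFU-E (step -1.61, SE 0.0817), while Rela, Relb and Nfkbia were steady. SMAD, WNT and NOTCH genes fell in 18 of 25 (median -0.34). Fzd7, a WNT receptor, was the member that rose, at 8.70, 8.67 and 8.69 in Pre MegE and 9.36, 9.41 and 9.43 in Pre CFU-E (step 0.71, SE 0.0549), and the SMAD corepressor Skil fell most, by 1.01. Ctnnb1, beta-catenin, was steady (-0.03).

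Of 19 BCL2 family and caspase genes, which act for or against survival, 11 fell and 2 rose (median -0.25). Bcl2, the survival factor of early progenitors, was at 10.47, 10.36 and 10.47 in Pre MegE and 9.14, 9.05 and 9.09 in Pre CFU-E (step -1.34, SE 0.0607). Bcl2l1, whose product BCL-XL protects late erythroblasts, fell by 0.62 to about the array median, and Mcl1 by 0.45. On the side of death Apaf1 fell by 0.57 and Bcl2l11, which encodes BIM, by 0.50, while Bid rose by 0.64 and Bak1 by 0.29.

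Of 17 cyclin, CDK and inhibitor genes of the G1 phase, 6 rose, 6 fell and 5 were not called. Ccne1, cyclin E1, which starts S phase, was at 9.22, 9.16 and 9.40 in Pre MegE and 11.31, 11.31 and 11.31 in Pre CFU-E (step 2.05, SE 0.0655, limma adjusted p = 2.65e-08). Its WT and KO Pre CFU-E arrays held equal values. Skp2 and Cdc25a, which promote entry into S phase, rose by 0.36 and 0.33. The inhibitors Cdkn2d and Cdkn1b fell by 0.89 and 0.72 (a second Cdkn1b probe set gave -0.22), as did Rbl2 (-0.47) and the early G1 genes Ccnd3 (-0.59) and Cdk6 (-0.47). Cdk4 rose by 0.13 and Rb1 by 0.12, both within the steady band.

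**Figure D3:**
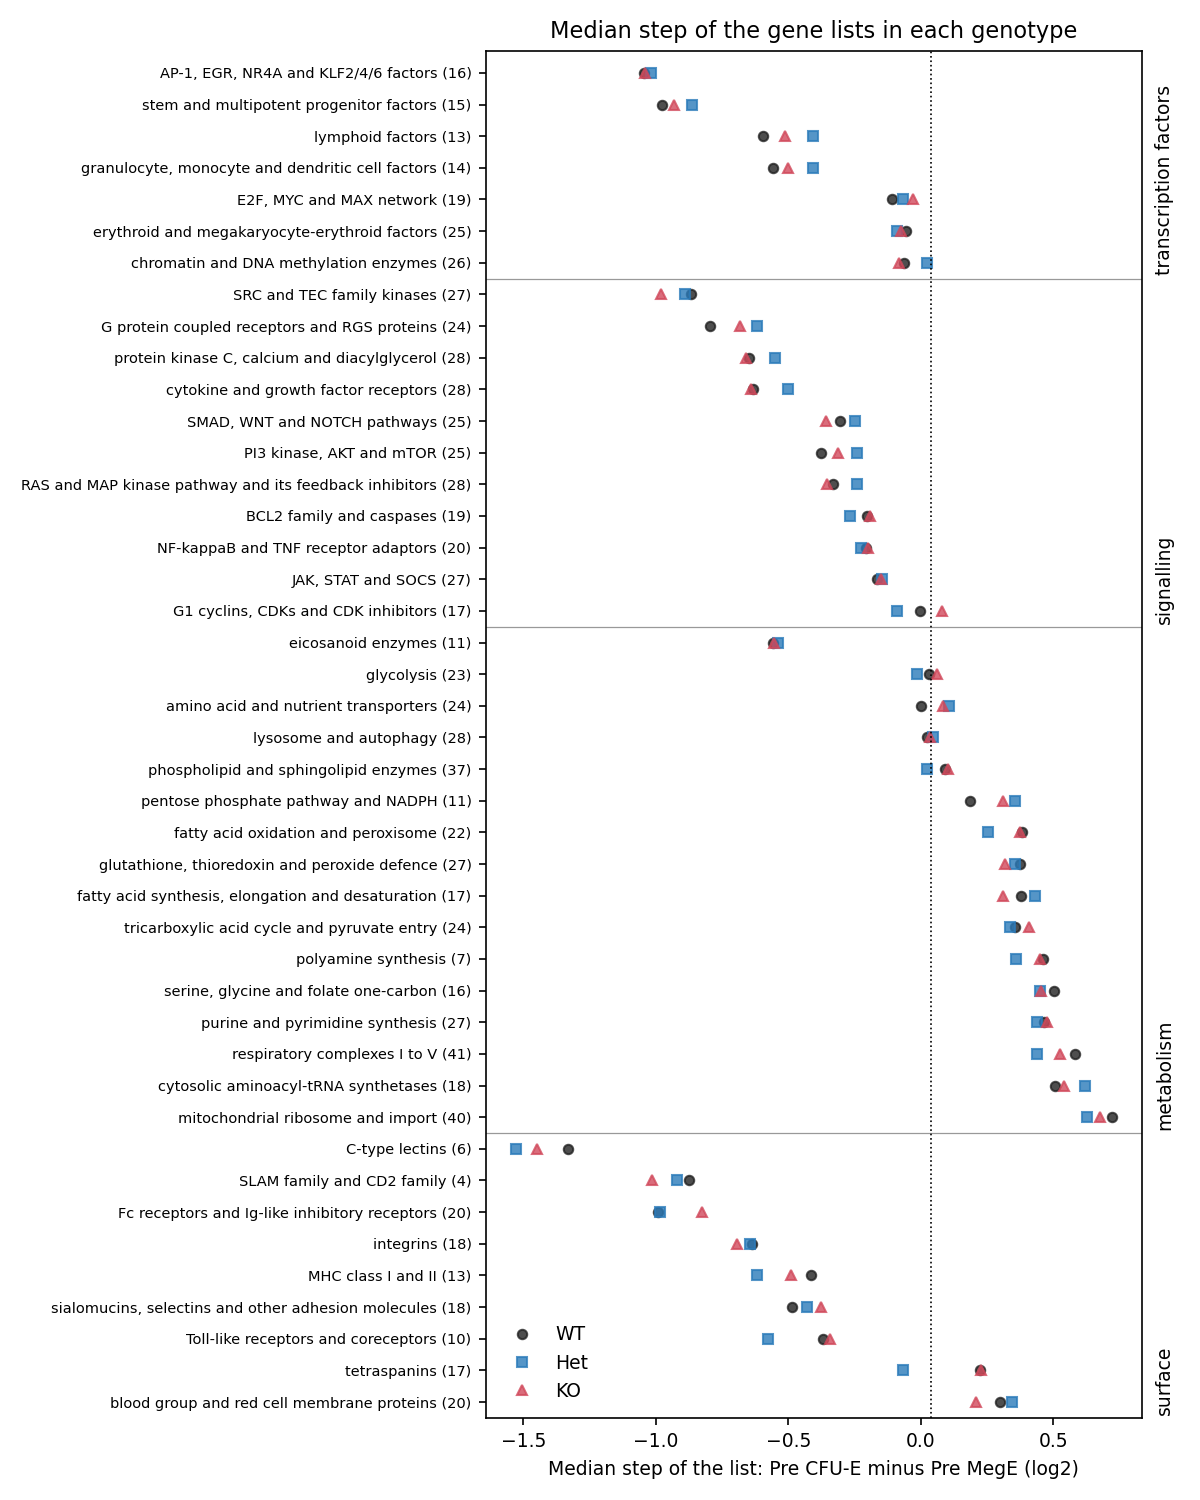
Median step (log2) of the gene lists in WT, Het and KO, with the number of tested genes in brackets; the dotted line is the median of all genes tested, 0.04. Most lists of signalling and white cell surface molecules lie to the left of it, with the G1 cyclins close to it, and those of mitochondria, nucleotides and protein synthesis to the right.

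All 41 measured genes of the respiratory complexes I to V rose (median 0.50), and 39 of 40 genes of mitochondrial ribosomes and protein import (median 0.67). Without the WT arrays 36 of the 41 and 39 of the 40 rose. Ndufa1, a subunit of complex I, was at 8.59, 8.64 and 8.90 in Pre MegE and 9.78, 9.71 and 9.84 in Pre CFU-E (step 1.07, SE 0.0886, limma adjusted p = 6.09e-06), and the complex II genes Sdhd and Sdhb rose by 0.87 and 0.84. Subunits of the ATP synthase rose least, Atp5d by 0.14 and Atp5b by 0.15, both within the steady band. Timm8a1, an import chaperone, was at 9.42, 9.36 and 9.39 in Pre MegE and 10.76, 10.52 and 10.75 in Pre CFU-E (step 1.28, SE 0.082). The ribosomal genes Mrps22 and Mrpl20 rose by 1.19 and 0.97, and Mrpl24 was steady (0.02).

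The tricarboxylic acid cycle and the entry of pyruvate rose in 17 of 24 genes and fell in 2 (median 0.38). Idh3a, a subunit of the mitochondrial NAD-dependent isocitrate dehydrogenase, was at 11.34, 11.13 and 11.15 in Pre MegE and 12.20, 12.16 and 12.23 in Pre CFU-E (step 0.99, SE 0.0572). Suclg1, a subunit of the enzyme that makes and uses succinyl-CoA, the substrate of heme synthesis, rose by 0.86. The pyruvate carrier Mpc1 rose by 0.75 and the pyruvate dehydrogenase subunit Dlat by 0.76, while Pdp1, the phosphatase that activates that complex, fell by 0.38.

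Glycolysis did not move as a group, with 9 of 23 genes higher, 9 lower and 5 not called, and a median of -0.05 that changed sign among the alternatives. The pyruvate kinase genes went opposite ways. Pklr, the pyruvate kinase of red cells and liver, was at 9.57, 9.17 and 9.50 in Pre MegE and 11.90, 12.01 and 12.02 in Pre CFU-E (step 2.56, SE 0.0895, limma adjusted p = 3.78e-08). Pkm, the pyruvate kinase of most other tissues, was at 11.41, 11.53 and 11.64 in Pre MegE and 10.03, 10.02 and 9.87 in Pre CFU-E (step -1.55, SE 0.0745, limma adjusted p = 2.28e-07). The directions of Pklr and Pkm were opposite in each genotype.

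At the cell membrane the glucose transporter Slc2a1 was at 10.16, 10.27 and 10.32 in Pre MegE and 8.95, 8.90 and 8.95 in Pre CFU-E (step -1.32, SE 0.0591), while the lactate carrier Slc16a1 rose by 0.90. Pfkm, a phosphofructokinase of muscle and red cells, rose by 0.73 with Pfkp and the hexokinase Hk1 not called (0.12 and -0.13). Eno3 rose by 0.76 and Pfkfb3 and Pgam1 fell by 0.55 and 0.48. Of the pentose phosphate pathway and NADPH genes 8 of 11 rose (median 0.28), led by Rpia at 11.08, 10.99 and 10.90 in Pre MegE and 11.62, 11.81 and 11.71 in Pre CFU-E (step 0.73) and Taldo1 (0.62). Idh1 and Nnt, other sources of NADPH, fell by 0.55 and 0.42.

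**Figure D4:**
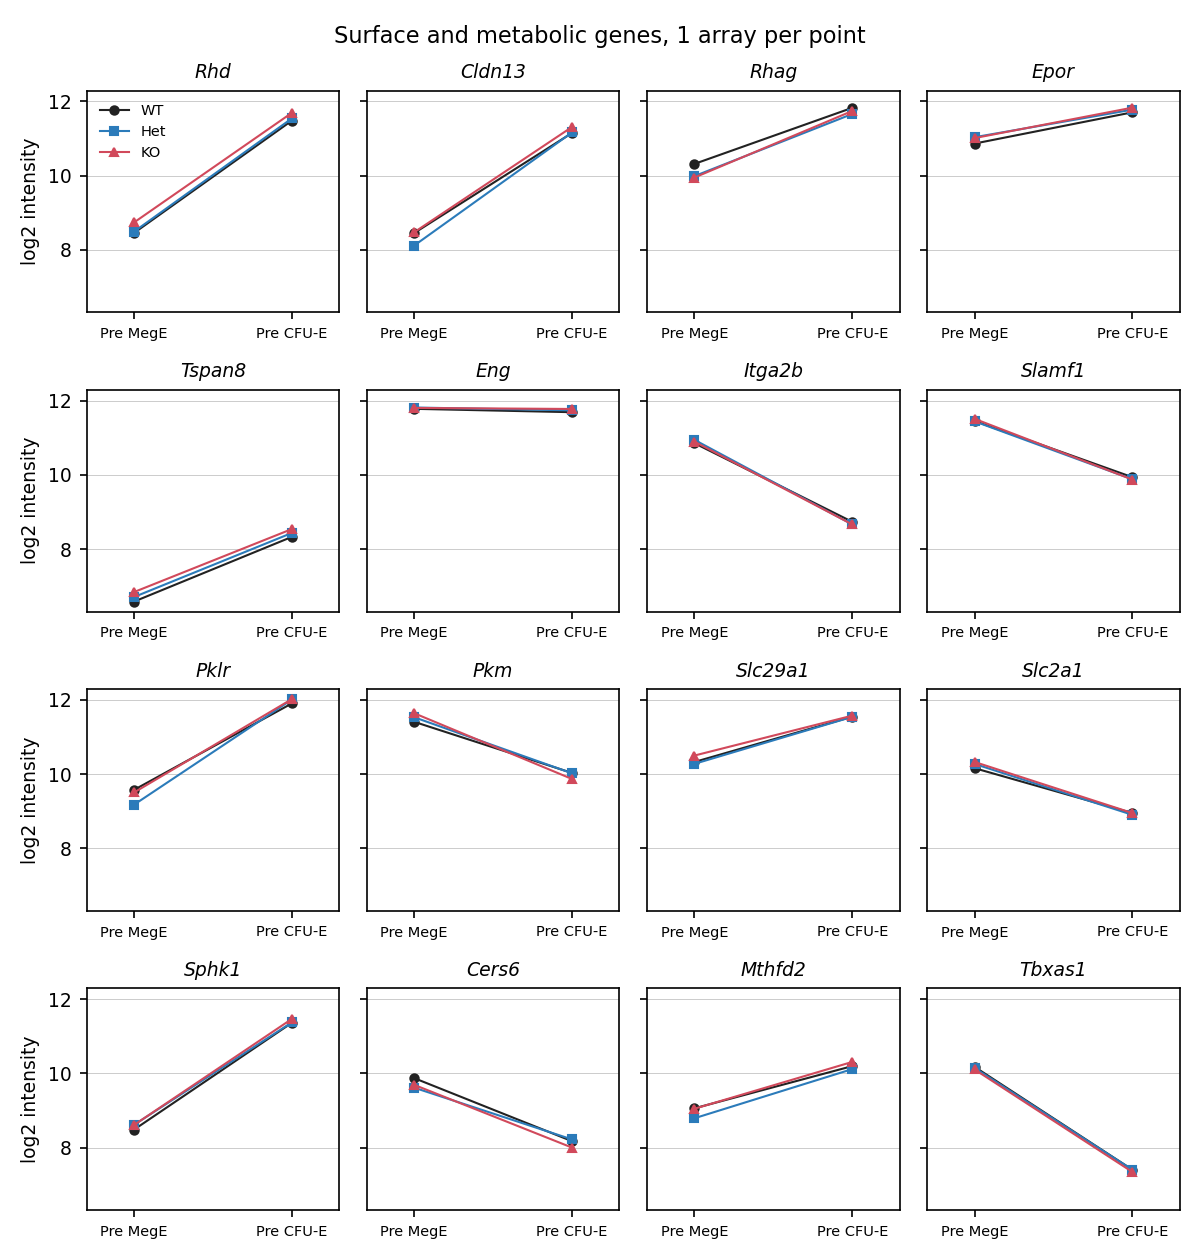
Log2 intensity of 16 surface and metabolic genes in Pre MegE and Pre CFU-E, 1 point per array and 1 line per genotype. Pklr rises as Pkm falls, Sphk1 rises as Cers6 and Tbxas1 fall, and Eng (CD105) stays between 11.69 and 11.81.

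Synthesis of nucleotides and one-carbon units rose together. In the serine, glycine and folate list 14 of 16 genes rose (median 0.43), and in purine and pyrimidine synthesis 22 of 27 (median 0.46). Mthfd2, a mitochondrial folate enzyme, was at 9.05, 8.79 and 9.04 in Pre MegE and 10.19, 10.11 and 10.31 in Pre CFU-E (step 1.24, SE 0.0809), and its cytosolic relative Mthfd1 rose by 1.16. Rrm2, the ribonucleotide reductase subunit that limits supply of DNA precursors, was at 10.30, 10.32 and 10.39 in Pre MegE and 11.62, 11.43 and 11.55 in Pre CFU-E (step 1.197, SE 0.0647). Ctps rose by 0.99 while Ctps2 fell by 0.35, and the muscle-type Adssl1 fell by 0.78 while Adss rose by 0.42. Aldh1l1, which burns folate-bound formyl groups, fell by 0.75 to below the array median.

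Of 18 cytosolic aminoacyl-tRNA synthetases 17 rose and Vars was steady (median 0.51); Hars was at 10.73, 10.72 and 10.72 in Pre MegE and 11.61, 11.61 and 11.62 in Pre CFU-E (step 0.89, SE 0.0444). The polyamine genes Odc1, Dhps, Dohh and Srm, which also supply the hypusine of the translation factor eIF5A, rose by 0.82, 0.69, 0.62 and 0.42 (4 of 7 tested).

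Of 24 transporter genes tested 11 rose and 7 fell, against 37.1% higher and 29.3% lower of all genes tested. Their median was 0.02, which turned in sign in 3 alternatives and was 0.07 over all 26 measured. The glutamine carrier Slc38a5 was at 9.82, 9.43 and 9.65 in Pre MegE and 11.99, 11.99 and 12.06 in Pre CFU-E (step 2.38, SE 0.0716, limma adjusted p = 2.08e-08), and the neutral amino acid carrier Slc7a8 at 10.25, 10.16 and 10.19 in Pre MegE and 8.78, 8.88 and 8.46 in Pre CFU-E (step -1.50, SE 0.0911). Slc29a1, the nucleoside transporter that carries the Augustine blood group, rose by 1.19, the metal carrier Slc39a8 by 1.09, and the mitochondrial glycine carrier Slc25a38 by 0.77. The mitochondrial iron carrier Slc25a37, mitoferrin, fell by 0.32, and the lipid exporter Mfsd2b by 0.63.

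Defences against peroxide rose in 19 of 27 genes and fell in 4 (median 0.35). Gsta4, a glutathione transferase, was at 7.66, 7.74 and 7.67 in Pre MegE and 9.06, 8.88 and 9.003 in Pre CFU-E, below the array median in all Pre MegE arrays (step 1.29, SE 0.0584). Nqo1 rose by 1.10, Blvrb, the biliverdin reductase of red cells, by 0.94, and Glrx5, needed for iron-sulfur clusters, by 0.94. The main peroxide enzymes of mature red cells differed: Prdx2 rose by 0.29, while Cat (-0.11) and Gpx1 (-0.04) were steady. Gstm1 fell most, by 0.83.

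Lipid enzymes showed single large shifts. Mboat2, an acyltransferase of lysophospholipids, was at 7.49, 7.32 and 7.81 in Pre MegE and 10.46, 10.50 and 10.50 in Pre CFU-E (step 2.95, SE 0.0847), and Sphk1, the kinase that makes the ligand of S1PR1, at 8.48, 8.61 and 8.61 in Pre MegE and 11.36, 11.37 and 11.46 in Pre CFU-E (step 2.83, SE 0.0492, limma adjusted p = 1.85e-09). The ceramide synthases Cers6 and Cers5 and the sphingomyelin synthase Sgms1 fell by 1.59, 1.17 and 0.84, while Cers2 was steady (0.04). As a group, 15 of 37 phospholipid and sphingolipid genes rose and 13 fell.

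Fatty acid synthesis rose in 11 of 17 genes (median 0.37) and oxidation in 14 of 22 (median 0.33). Acsl6, the acyl-CoA synthetase of red cells and brain, was at 6.72, 6.93 and 7.05 in Pre MegE and 8.90, 8.87 and 8.95 in Pre CFU-E, below the median in every Pre MegE array (step 2.01, SE 0.0777). Fasn (0.12) and Scd1 (0.04) were not called, and Scd2 fell by 0.24. In oxidation Etfa rose by 0.78, whereas Cpt1a, which lets fatty acids into mitochondria, fell by 0.47. Enzymes of eicosanoids, signal lipids of platelets and white cells, fell in 7 of 11 tested genes (median -0.56), and over all 15 measured the median was -0.22 with 9 lower. Tbxas1, the thromboxane synthase of platelets, was at 10.17, 10.14 and 10.10 in Pre MegE and 7.40, 7.40 and 7.34 in Pre CFU-E (step -2.76, SE 0.0458), and the leukotriene genes Alox5ap and Alox5 fell by 1.89 and 0.63. Lysosome and autophagy genes were balanced, 9 of 28 higher and 9 lower, from Lipa at 0.73 to Ulk1 at -0.73 and the granule protease Ctsg at -0.86.

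On the cell surface, blood group and red cell membrane genes rose in 11 of 20 and fell in 3 (median 0.26). Rhd, of the Rh complex, was at 8.45, 8.49 and 8.74 in Pre MegE and 11.48, 11.54 and 11.69 in Pre CFU-E (SE of the step 0.0835), and its partner Rhag at 10.31, 9.98 and 9.94 in Pre MegE and 11.82, 11.66 and 11.74 in Pre CFU-E (step 1.66, SE 0.0604). Cldn13, a claudin of mouse erythroid cells, was at 8.45, 8.11 and 8.47 in Pre MegE and 11.15, 11.16 and 11.31 in Pre CFU-E (step 2.86). Beneath the membrane the skeleton genes Add2, Ank1 and Sptb rose by 1.51, 1.39 and 0.93, while Dmtn rose by only 0.18 and Add1 was not called (0.05). Of the genes of the mature membrane, Slc4a1, the band 3 anion exchanger, was at 8.57, 8.26 and 8.57 in Pre MegE and 8.16, 8.14 and 8.22 in Pre CFU-E (step -0.29), a fall that was no longer called without the WT arrays (limma adjusted p = 0.05) or the KO arrays (0.0532). Epb42 was not called (0.18).

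Tetraspanins were divided, 8 of 17 higher and 7 lower. Tspan8 was at 6.58, 6.71 and 6.84 in Pre MegE and 8.33, 8.43 and 8.54 in Pre CFU-E, below the median in every Pre MegE array (step 1.72, SE 0.0494), Tspan33, known in red cell precursors, rose by 1.15 and Cd82 by 0.97. Cd53, of white cells, was at 10.29, 10.22 and 10.12 in Pre MegE and 8.96, 8.90 and 8.72 in Pre CFU-E (step -1.35), and Cd9, of platelets and stem cells, fell by 1.22. Integrins and their adaptors fell in 13 of 18 tested (median -0.66, and -0.34 over all 25 measured). The largest fall was that of Itga2b, followed by Itgal, the LFA-1 chain (-1.99), and the smallest that of Itga4, the VLA-4 chain that binds red cell precursors to macrophages (-0.34). Itgb1 was steady (-0.04), and Itga5, a fibronectin receptor chain, rose, at 9.63, 9.79 and 9.73 in Pre MegE and 10.13, 10.38 and 10.27 in Pre CFU-E (step 0.55, SE 0.0629).

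Sialomucins and other adhesion molecules fell in 13 of 18 tested genes (median -0.41). Cd34, the progenitor marker, was at 11.69, 11.81 and 11.94 in Pre MegE and 8.71, 8.63 and 8.74 in Pre CFU-E (SE of the step 0.0677), and Pecam1 and Esam fell by 1.72 and 1.27. Cd24a, the heat stable antigen of red cell precursors, was the member that rose, at 12.53, 12.53 and 12.29 in Pre MegE and 13.16, 13.09 and 13.14 in Pre CFU-E (step 0.68, SE 0.0597), while Cd44 and Cd47 fell by 0.27 and 0.26. Within the SLAM and CD2 families, used with CD150 to grade stem cells, Cd84 fell by 1.56, Cd48 by 0.32, and Ly9 was steady (-0.14).

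Of the immune receptors that could be tested, 19 of 20 Fc and Ig-like inhibitory receptors, 6 of 6 C-type lectins, 7 of 10 Toll-like receptor genes and 10 of 13 MHC genes fell. Many of these lists' members were dim: over all measured genes, 9 of 23 C-type lectins were lower with a median of -0.06, 10 of 21 Toll-like receptor genes with -0.20 and 24 of 29 Fc and Ig-like receptors with -0.81. Clec4e, Clec2i, Cd180 and Ms4a2 lay below the median in all Pre CFU-E arrays but not in all Pre MegE arrays. Ms4a2, the IgE receptor beta chain of mast cells, was at 7.51, 7.87 and 7.97 in Pre MegE and 5.64, 5.97 and 5.66 in Pre CFU-E (step -2.02, SE 0.1448). Clec4e was at 9.55, 9.65 and 9.86 in Pre MegE and 6.84, 6.77 and 6.81 in Pre CFU-E (step -2.88), and the lectin Cd69 fell by 1.96. H2-Ob, a chain of the H2-O regulator of MHC class II peptide loading, was at 10.75, 10.97 and 10.71 in Pre MegE and 8.16, 8.16 and 8.14 in Pre CFU-E (step -2.66, SE 0.0734), while the class II chain gene H2-Ab1 was steady (0.02) and B2m fell by 0.19. Cd180, a Toll-like receptor relative of B cells, was at 10.14, 10.15 and 9.997 in Pre MegE and 6.89, 7.05 and 7.02 in Pre CFU-E (step -3.11), while the adaptor Myd88 had a rise of 0.38. Of the listed receptors, 18 of 24 C-type lectins and 13 of 23 Toll-like receptor genes were too dim to be tested or had no probe set of their own.

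Among all genes, those ranked 13 to 24 by size add functions outside the lists. Rises there were Aqp11 (2.27), the meiotic ubiquitin ligase Ccnb1ip1 (2.27), the aldehyde dehydrogenase Aldh1a7 (2.22), the mitochondrial carrier Slc25a21 (2.17), the metallothionein Mt2 (2.16), Susd2 (2.13), Cdr2 (2.11), Prelid2 (2.05), the unconventional myosin Myo1d (2.01) and the protease Hpn, hepsin (1.99). Mt2, which binds zinc and copper, was at 11.42, 11.44 and 11.19 in Pre MegE and 13.53, 13.45 and 13.54 in Pre CFU-E (SE 0.0652). Falls were Olfr414 (-2.60), Angpt1, the ligand of TEK (-2.57), Neurl3 (-2.39), Med12l (-2.39), Myct1 (-2.38) and Gcnt2, which makes the I blood group antigen (-2.36). Angpt1 was at 11.45, 11.72 and 11.58 in Pre MegE and 9.09, 9.01 and 8.93 in Pre CFU-E, so ligand and receptor of this pair fell at the same step.

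The step was much alike in the 3 genotypes. Across the 10701 genes the correlation of the step was 0.937 between WT and Het, 0.969 between WT and KO and 0.954 between Het and KO, from arrays that no pair of genotypes shares; genes are not independent replicates and no test was made. Of all genes tested 8427 (78.7%) had 1 sign in all 3 genotypes. Among the 7099 called genes 7068 did (99.6%), a share that the calling itself largely fixes. The step passed 2-fold in 679 genes in WT, 672 in Het and 697 in KO. WT and Het shared 514 of these (75.7% and 76.5%), WT and KO 569 (83.8% and 81.6%) and Het and KO 565 (84.1% and 81.1%), with no gene in opposite directions in any pair. Of the 648 called genes past 2-fold, chosen by their average, 491 (75.8%) passed it in each genotype. The mean step of the called genes at least 2-fold lower was -1.43 in WT, -1.47 in Het and -1.52 in KO, and of those at least 2-fold higher 1.35, 1.42 and 1.41.

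**Figure D5:**
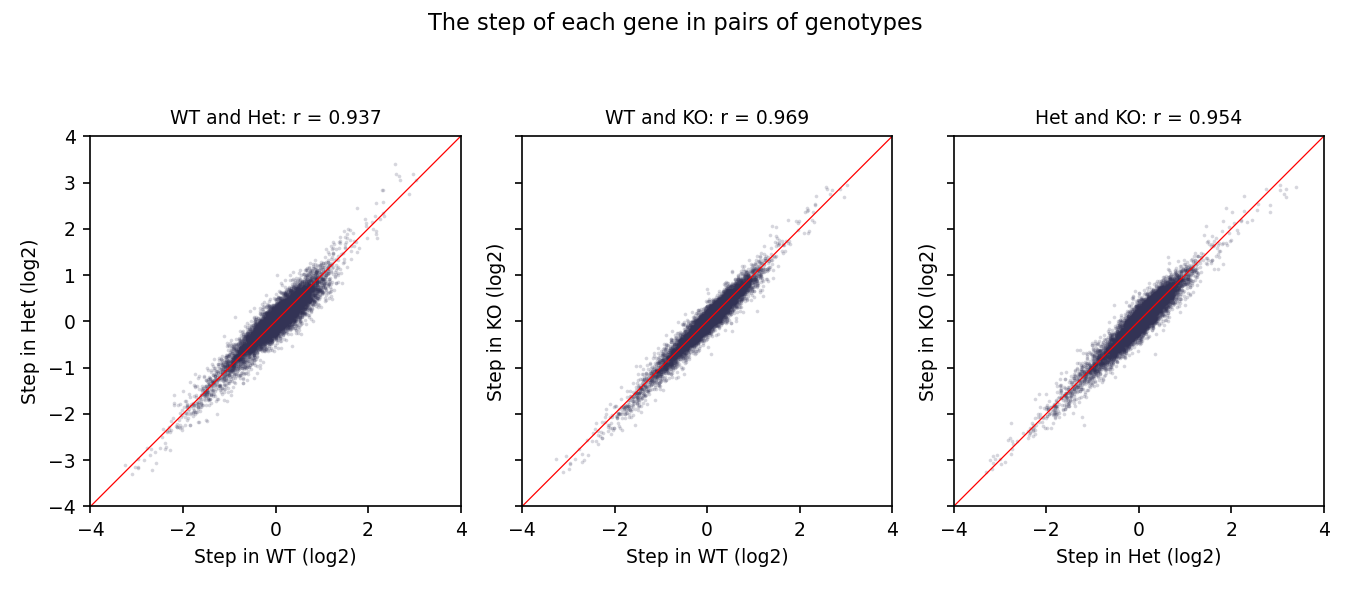
The step (Pre CFU-E minus Pre MegE, log2) of each of 10701 genes in 1 genotype against another; the red line marks equal steps. Points lie along the line in all 3 panels, with r of 0.937, 0.969 and 0.954.

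A test of whether the step grew or shrank with the number of gfp alleles called no gene (0%, 3 residual degrees of freedom) by limma, with 208 of 10701 genes at an unadjusted p under 0.05 and a smallest adjusted p of 1. These 208 genes are fewer than an unadjusted threshold of 0.05 lets through on average when no gene changes. The unadjusted 95% interval of a gene reached a median of 0.16 per allele to either side, and larger changes than that also went uncalled. The smallest unadjusted p belonged to Snord38a, a small nucleolar RNA gene below the median on all 6 arrays, whose step changed by -0.42 per allele (SE 0.0673, limma adjusted p = 1). Cxcl10, a chemokine induced by interferon, was at 8.68, 8.38 and 8.02 in Pre MegE and 8.69, 8.64 and 8.72 in Pre CFU-E: its Pre MegE level was lower in KO than in WT while Pre CFU-E levels were close (0.34 per allele, SE 0.0646, limma adjusted p = 1). Ankle1, an endonuclease of blood cells, was at 7.73, 7.95 and 8.16 in Pre MegE and 8.75, 8.69 and 8.69 in Pre CFU-E (-0.25 per allele), and Cabcoco1 at 7.97, 7.86 and 7.78 in Pre MegE and 7.78, 7.94 and 8.02 in Pre CFU-E (0.22 per allele).

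The largest differences of the KO step from the WT step were reviewed without a test, as each rests on 4 arrays. Above WT were Cxcl10 (0.69), Aldh1a1, a retinaldehyde dehydrogenase (0.56), Tent5c, a poly(A) polymerase (0.53), and Mrpl22 (0.53). Aldh1a1 was at 9.06, 8.47 and 8.53 in Pre MegE and 10.54, 10.42 and 10.57 in Pre CFU-E and Tent5c at 9.97, 9.67 and 9.53 in Pre MegE and 9.64, 9.95 and 9.73 in Pre CFU-E. Mrpl22 was at 8.38, 7.92 and 7.95 in Pre MegE and 8.92, 8.92 and 9.03 in Pre CFU-E. For all 4 genes the WT Pre MegE array was the highest of its stage. Choosing genes by the difference of the KO step from the WT step favours such values. They therefore cannot show that this array stands apart. Below WT were Podxl, a sialomucin (-0.79), Sdhaf4, an assembly factor of complex II (-0.67), Irf1, an interferon response factor (-0.64), and Akap5 (-0.59). Podxl was at 8.81, 8.90 and 8.90 in Pre MegE and 8.90, 9.26 and 8.20 in Pre CFU-E, with the KO Pre CFU-E array alone low. Irf1 was at 10.78, 10.57 and 10.62 in Pre MegE and 10.27, 9.73 and 9.48 in Pre CFU-E, so it fell in each genotype and most in KO. Sdhaf4 was at 8.12, 8.56 and 8.53 in Pre MegE and 9.34, 9.04 and 9.08 in Pre CFU-E and Akap5 at 7.65, 7.91 and 7.91 in Pre MegE and 8.04, 8.01 and 7.72 in Pre CFU-E. Sdhaf4 was higher in Pre CFU-E in every genotype, while the step of Akap5 was not called. The WT Pre MegE array was the lowest of its stage for Podxl, Sdhaf4 and Akap5 and the highest for Irf1. It was also the lowest for Snord38a, which was chosen by its p-value.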

How the data were processed

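The authors deposited 1 linear intensity per probe set and array, made by RMA from single-colour arrays hybridised with labelled total RNA, per the labels and the submitters' processing notes. The version of RMA and the gene build were not given in the sources used here. Of 29674 probe sets, 21780 had 1 gene symbol, 1618 several and 6276 none listed; only the first were named. For the 996 genes with several probe sets, the one with the highest mean was used.

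From the deposited intensity, log2 was taken without further normalization. A gene was tested where it was at or above its array's median on at least 2 of 9 progenitor arrays, which left 10701 of 19933 genes. The limma test (3.58.1, R 4.3.3) fitted stage plus genotype over the 9 arrays (4 residual degrees of freedom), and the test by gfp alleles a linear stage by allele term. Both were run on simulated data with independent noise, which held neither the identical values nor the mixed marks of sex seen here. Those runs do not show what either test can find in these arrays. Array medians were 214.9 to 218.4 in Pre MegE and 202.9 to 205.3 in Pre CFU-E. The number of arrays limits the precision: the median SE of a step was 0.0575.

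The 53 lists and the genes compared were chosen with earlier results of these data known. 1 of the lists is not reported here. In each list, up to 4 called genes with the largest rise and fall and 1 sign in all genotypes were named, with values in every array for the largest; further members, and the promoters shown, were chosen after their values were seen. Also named were Zbtb46, the gate genes, ranks 13 to 24 among all genes without predicted symbols, the 4 smallest p by gfp alleles and the 4 largest differences of KO from WT each way. Promoters came from RefSeq (GRCm38.p6). Alternatives changed the scaling, the filter, the probe set rule, the arrays and genotypes used, the array weights and the fold tested.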

Additional observations from a re-analysis of the deposited data

How the results depend on the processing

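Over 22 alternatives to the step and 295 named genes, 6332 of 6451 values kept their direction and side of the threshold, 112 lost the call and 6 gained it. Most named genes were chosen as called genes with large steps, which favours keeping the call. Several alternatives, such as another filter or the test against a fold of 1.2, leave the size of a step unchanged and can alter only its call. Eng turned in sign when each array was centred on its median (0.0193). Leaving out each array in turn gave 6249 to 7388 called genes, 3507 to 4120 higher, 2742 to 3268 lower and 3106 to 4041 steady; at least 2-fold, 164 to 205 were higher and 452 to 478 lower. Tested against a fold of 1.2, 3516 genes were called, 1866 higher and 1650 lower. Without the filter on dim genes there were 10764 steady genes, 57.9% of genes had 1 sign in all genotypes, and the correlations were 0.885 (WT and Het), 0.921 (WT and KO) and 0.912 (Het and KO). The share with 1 sign was 83.7% after centring and 81.3% after quantile normalization; the cause was not tested. The change per gfp allele of Aldh1a1 ranged from -0.0395 (without the WT Pre MegE array) to 0.6019 as arrays were left out, and that of Podxl from -1.0992 to 0.3072 (without the KO Pre CFU-E array). The gfp allele test called 0 genes by limma in every alternative, with 167 to 741 at an unadjusted p under 0.05. Leaving out genes whose 3 arrays of a stage held 1 identical value, an alternative chosen after seeing the data, gave 6963 of 10478 called, 3912 higher and 3051 lower. The medians of 7 of 53 lists turned in sign in some alternative, among them glycolysis, nutrient transporters and chromatin enzymes. The array weights stopped before their tolerance was reached. No call of signal above background was used, so dim genes were judged by the array medians alone.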
